A study of Homo sapiens with 12 samples.

Results

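The 41 genes described here carry, read or answer protein-folding stress in the endoplasmic reticulum (ER) and the amino acid and kinase signals that meet it at the transcription factor ATF4. They were taken by gene symbol from a list for the pathway, and all 41 were found among the 28278 gene symbols of the count table. By role they were 6 stress sensors and eIF2α kinases, 7 transcription factors, 4 feedback and effector genes, 6 enzymes of amino acid and one-carbon metabolism, 14 ER chaperones and folding factors and 4 genes of ER-associated degradation. A filter on low counts left 40 of them in each test. The member not tested was ASNS.

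When unfolded proteins build up in the ER, the sensors PERK (EIF2AK3), IRE1 (ERN1) and ATF6 are released from control. PERK, and its relatives GCN2 (EIF2AK4), PKR (EIF2AK2) and HRI (EIF2AK1), phosphorylate the translation factor eIF2α, which slows protein synthesis while the ATF4 message is translated better. ATF4 then raises genes for amino acid supply and stress handling, among them its partner CHOP (DDIT3), whereas ATF6 and the spliced form of XBP1 raise ER chaperones and degradation factors. Because ATF4 is regulated at translation and IRE1 acts by splicing XBP1, gene-level counts do not report the activity of either.

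Pools were sequenced from OVCAR3, labelled an ovarian cancer line, and CCL218, labelled a colorectal cancer line. In each line a plate passaged without drug (control, passage 19) was set beside a plate given 15 pulses of 48 h with hydroxychloroquine (HCQ) at 20 to 50 µM (HCQ-evolved, passage 15), the HCQ-evolved cells being taken 7 days after drug was removed. HCQ raises lysosomal pH and blocks autophagy. Each of the 4 groups held 3 pools of 31 wells, named L, M and R for their place on that group's single plate, so p-values measure the spread between pools of 1 plate, and drug, plate and passage number cannot be told apart.

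The pools held 31147822 to 59965861 counts. Pools differed in how their counts moved with transcript length: Spearman's rho across genes between a pool's deviation and length ran from -0.506 (CCL218 control L) to 0.558 (OVCAR3 HCQ-evolved R), and was 0.522 in OVCAR3 control M. Of 10 markers of ovarian epithelium, SOX17, EMX2 and ESR1 had 3 counts or fewer in every pool of either line, and WT1 stayed at or below 2.38 CPM (counts scaled to the library total) in pools labelled OVCAR3. The 10 markers summed to 464 to 1030 CPM in OVCAR3 and 406 to 895 CPM in CCL218, mostly from CLDN3. Of 12 colorectal markers, VIL1 (79.4 to 288 CPM) and LGALS4 (135 to 822 CPM) were well expressed in pools labelled OVCAR3, KRT20 was at or near 0 throughout, and the 12 summed to 1020 to 1210 CPM in OVCAR3 control, 258 to 728 in OVCAR3 HCQ-evolved, 1270 to 1720 in CCL218 control and 1330 to 1400 in CCL218 HCQ-evolved pools. Some other markers differed in the direction of the labels: CDX2 was at 0.812 to 13.1 CPM in OVCAR3 and 21.3 to 72.2 CPM in CCL218, and CEACAM5 at 3.75 to 8.01 and 12.8 to 68.3 CPM. On the ovarian list MUC16 was at 13.0 to 50.6 and 3.67 to 14.0 CPM, and WFDC2 at 11.8 to 42.8 and 4.54 to 12.7 CPM. MSLN went the other way, at 2.23 to 17.5 and 46.6 to 129 CPM. So did ASCL2 on the colorectal list, at 9.64 to 44.3 CPM in OVCAR3 and 0.923 to 11.4 CPM in CCL218. PAX8, on the ovarian list, was alike in the lines, with every pool of either at 6.42 to 14.2 CPM. HNF4A, on the colorectal list, reached 89.8 CPM in OVCAR3, within its CCL218 range. Between control pools 6 of 7 ovarian markers tested were lower in CCL218, and 8 of 10 colorectal markers tested were higher. The lines are called by their labels.

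Promoter sequences show which of the response's known DNA elements these genes carry. RefSeq promoters (GRCh38.p14, 250 bases before to 50 after the start) were found for 36 of the 41 members. Shares below are over single promoters, whereas a member was counted if any promoter listed for it matched, so the units differ. The ER stress response element (ERSE, CCAAT and CCACG separated by 9 bases of any kind, all elements being searched on both strands) lay in 27 of 35116 promoters (0.0769%) and in 7 of the 36 members: XBP1, HSPA5, HSP90B1, CALR, CANX, PDIA6 and CRELD2. The second form (ERSE-II, ATTGG, any base, then CCACG) lay in 0.0541% of promoters and in HYOU1, SDF2L1 and HERPUD1. The C/EBP-ATF element (CARE, TGATGNAA), the kind of site that ATF4 dimers bind, lay in 3.62% of promoters and in CEBPG, CREB3L2, PPP1R15B, CHAC1, ASNS and HERPUD1. The cyclic AMP element (CRE, TGACGTCA) lay in 1.85% of promoters and in CREB3L2 and PPP1R15A. The unfolded protein response element TGACGTGG lay in 0.729% and in HYOU1 alone among the members, where it overlapped a copy of ERSE-II. A match is a description of the letters and not evidence of binding. The sequences below are examples from members that carry an element. They run 5′ to 3′ on the gene's own strand, with the fixed letters of the element in capitals. HSPA5 (chr9:125241381-125241419, minus strand), PDIA6 (chr2:10812843-10812881, minus strand) and XBP1 (chr22:28800593-28800631, minus strand) show ERSE, SDF2L1 (chr22:21642104-21642134, plus strand) shows ERSE-II, CHAC1 (chr15:40953252-40953279, plus strand) shows CARE and PPP1R15A (chr19:48872353-48872380, plus strand) shows CRE.
HSPA5: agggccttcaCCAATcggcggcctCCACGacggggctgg
PDIA6: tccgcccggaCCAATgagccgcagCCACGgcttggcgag
XBP1: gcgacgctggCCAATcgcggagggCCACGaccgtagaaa
SDF2L1: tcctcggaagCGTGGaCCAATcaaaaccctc
CHAC1: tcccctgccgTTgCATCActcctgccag
PPP1R15A: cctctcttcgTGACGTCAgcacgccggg

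In OVCAR3, PPP1R15A, the feedback gene of the eIF2α arm, was lower in HCQ-evolved pools, and none of the ER chaperones passed the test. PPP1R15A alone passed among the 40 members, at 3.34-fold lower, where 1.86% of all 12204 genes were called, 1.21% lower and 0.647% higher (edgeR's quasi-likelihood test, Benjamini-Hochberg adjusted p under 0.05 over all genes). Without adjustment 8 members had a p under 0.05, 6 of them lower, where 16.2% of all genes did. The median log2 fold change of the members was 0.006, beside 0.016 for all genes. Pools were apart, with every HCQ-evolved pool beyond every control pool, for 15 members (8 higher and 7 lower), where 25.9% of all genes were (14.5% higher and 11.4% lower). No member was called higher. DESeq2 called 1 member higher (PDIA4) and 5 lower (NUPR1, PPP1R15A, DDIT3, CHAC1 and TRIB3), and limma voom called PPP1R15A and CHAC1 lower. Over all genes DESeq2 called 9.05% and limma voom 2.4% in this line.

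In CCL218, no member passed the test in either direction, where 6.46% of all 12241 genes were called, 3.82% higher and 2.64% lower. At an unadjusted p under 0.05 there were 4 members, 2 in each direction, where 25.2% of all genes passed. DESeq2 called NUPR1 and HSP90B1 higher and SYVN1 lower, and limma voom called NUPR1 higher, where they called 17.7% and 7.34% of all genes. Deviations of same-position CCL218 pools correlated at 0.505, 0.23 and 0.197, where those of different positions reached 0.43. With plate position as a replicate block edgeR called 3 members: NUPR1 higher by 2.04 on the log2 scale (adjusted p = 0.00364), SYVN1 at -0.60 (adjusted p = 0.0347) and SDF2L1 at -0.65 (adjusted p = 0.0381). The same fit called 14.2% of all genes. The median log2 fold change was 0.159 in the members and -0.017 over all genes. Pools were apart for 9 members that were higher and 2 that were lower, where 36.1% of all genes were apart (19.8% higher and 16.3% lower). CCL218 control L was the lowest of its 3 pools for 24 of the 40 members and the highest for 14, and with it left out 5 members were called higher (NUPR1, CRELD2, DDIT3, CEBPB and HSP90B1) and 2 lower (HYOU1 and SYVN1), where 25.2% of all genes were called.

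**Figure D1:**
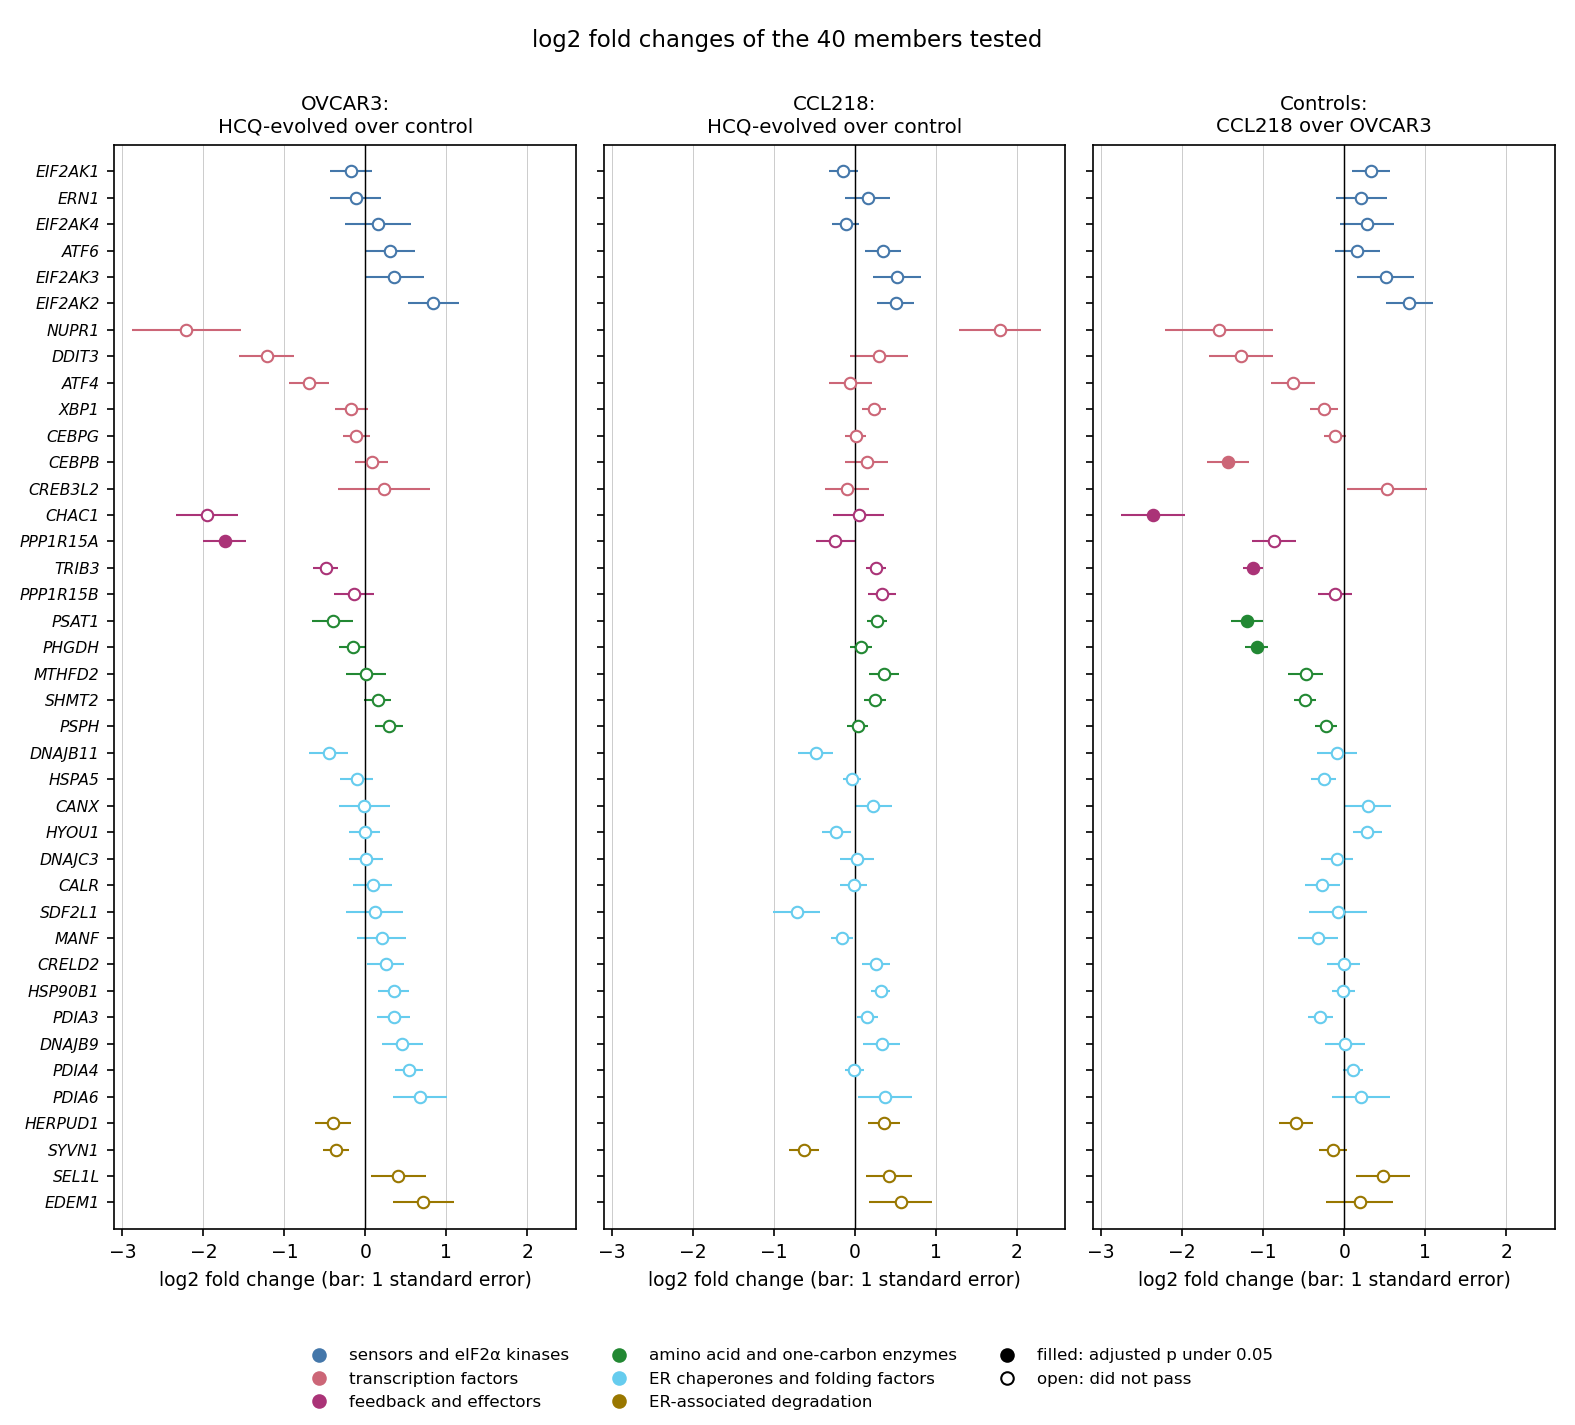
log2 fold changes of the 40 members tested, by role, for HCQ-evolved over control pools in each line and for CCL218 over OVCAR3 control pools, with bars of 1 standard error from edgeR. Filled points passed an adjusted p of 0.05: PPP1R15A in OVCAR3, none in CCL218, and CEBPB, CHAC1, TRIB3, PSAT1 and PHGDH between the controls.

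The sensors and kinases did not pass the test in any comparison. In OVCAR3 their log2 fold changes ran from -0.175 to 0.841 and in CCL218 from -0.144 to 0.524. The largest was that of EIF2AK2, the kinase PKR that senses double-stranded RNA. It was at 43.4, 69.3 and 42.2 CPM in OVCAR3 control pools L, M and R and at 77.4, 72.3 and 131 CPM in HCQ-evolved pools. The OVCAR3 groups did not overlap, but control M stood close to the lowest HCQ-evolved pool (log2 fold change 0.84 ± 0.32 SE, adjusted p = 0.244). In CCL218 EIF2AK2 was at 61.6, 114 and 97.7 CPM in control and 114, 130 and 150 CPM in HCQ-evolved pools, where control M reached the lowest HCQ-evolved pool (0.50 ± 0.23, adjusted p = 0.219). Its transcript of 9975 nt is the longest of the members. PERK (EIF2AK3) had overlapping groups in both lines, with log2 fold changes of 0.36 ± 0.36 in OVCAR3 (adjusted p = 0.68) and 0.52 ± 0.29 in CCL218 (adjusted p = 0.307). Per kilobase of transcript, ERN1 and EIF2AK3 were among the least abundant members in all groups, at 1.30 and 2.17 CPM per kb in OVCAR3 control pools.

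PPP1R15A encodes GADD34, the stress-induced subunit that brings protein phosphatase 1 to eIF2α and so ends the translational block. It lies at chr19:48872212-48876059 (plus strand), and its CRE is among the promoter sequences printed above. In OVCAR3 it was at 804, 530 and 623 CPM in control pools L, M and R and at 225, 233 and 139 CPM in HCQ-evolved pools. Every control pool was far above every HCQ-evolved pool, and the log2 fold change was -1.74 ± 0.26 (SE, n = 3 pools a group, adjusted p = 0.0272, edgeR). The direction was the same with any 1 pool left out (-1.87 to -1.55), but the call was lost without control L, M or R and without HCQ-evolved L or M (adjusted p up to 0.157). The fits that lost it called 0.025% to 0.404% of all genes, beside 1.86% with every pool. PPP1R15A also missed the threshold with plate position as a replicate block (adjusted p = 0.052, edgeR), where 0.664% of all genes were called. In CCL218 it was at 499, 292 and 293 CPM in control and 347, 308 and 283 CPM in HCQ-evolved pools. The CCL218 groups overlapped (-0.24 ± 0.24, adjusted p = 0.557). The constitutive partner PPP1R15B did not pass in either line, at -0.15 ± 0.25 in OVCAR3 and 0.34 ± 0.17 in CCL218.

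CHAC1, which degrades glutathione and is a target of ATF4 and CHOP, had the largest log2 fold change of this role in OVCAR3. It was at 60.04, 36.5 and 29.4 CPM in OVCAR3 control pools and at 8.88, 7.91 and 15.9 CPM in HCQ-evolved pools. The groups did not overlap, and the adjusted p of 0.0517 missed the threshold (log2 fold change -1.96 ± 0.38, 3.89-fold lower). In CCL218 it was at 12.2, 7.08 and 5.52 CPM in control and 8.17, 10.7 and 7.35 CPM in HCQ-evolved pools, within the same range (0.05 ± 0.32, adjusted p = 0.936).

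TRIB3, a pseudokinase that ATF4 and CHOP raise and that restrains AKT, had pools that lay close together. It was at 133, 141 and 138 CPM in OVCAR3 control and 95.4, 104 and 98.4 CPM in HCQ-evolved pools. It was at 59.0, 67.9 and 64.6 CPM in CCL218 control and 81.9, 82.6 and 69.0 CPM in HCQ-evolved pools. Every HCQ-evolved pool was lower than every control pool in OVCAR3 and higher in CCL218, and neither change passed (-0.49 ± 0.15, adjusted p = 0.161, and 0.26 ± 0.13, adjusted p = 0.25).

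**Figure D2:**
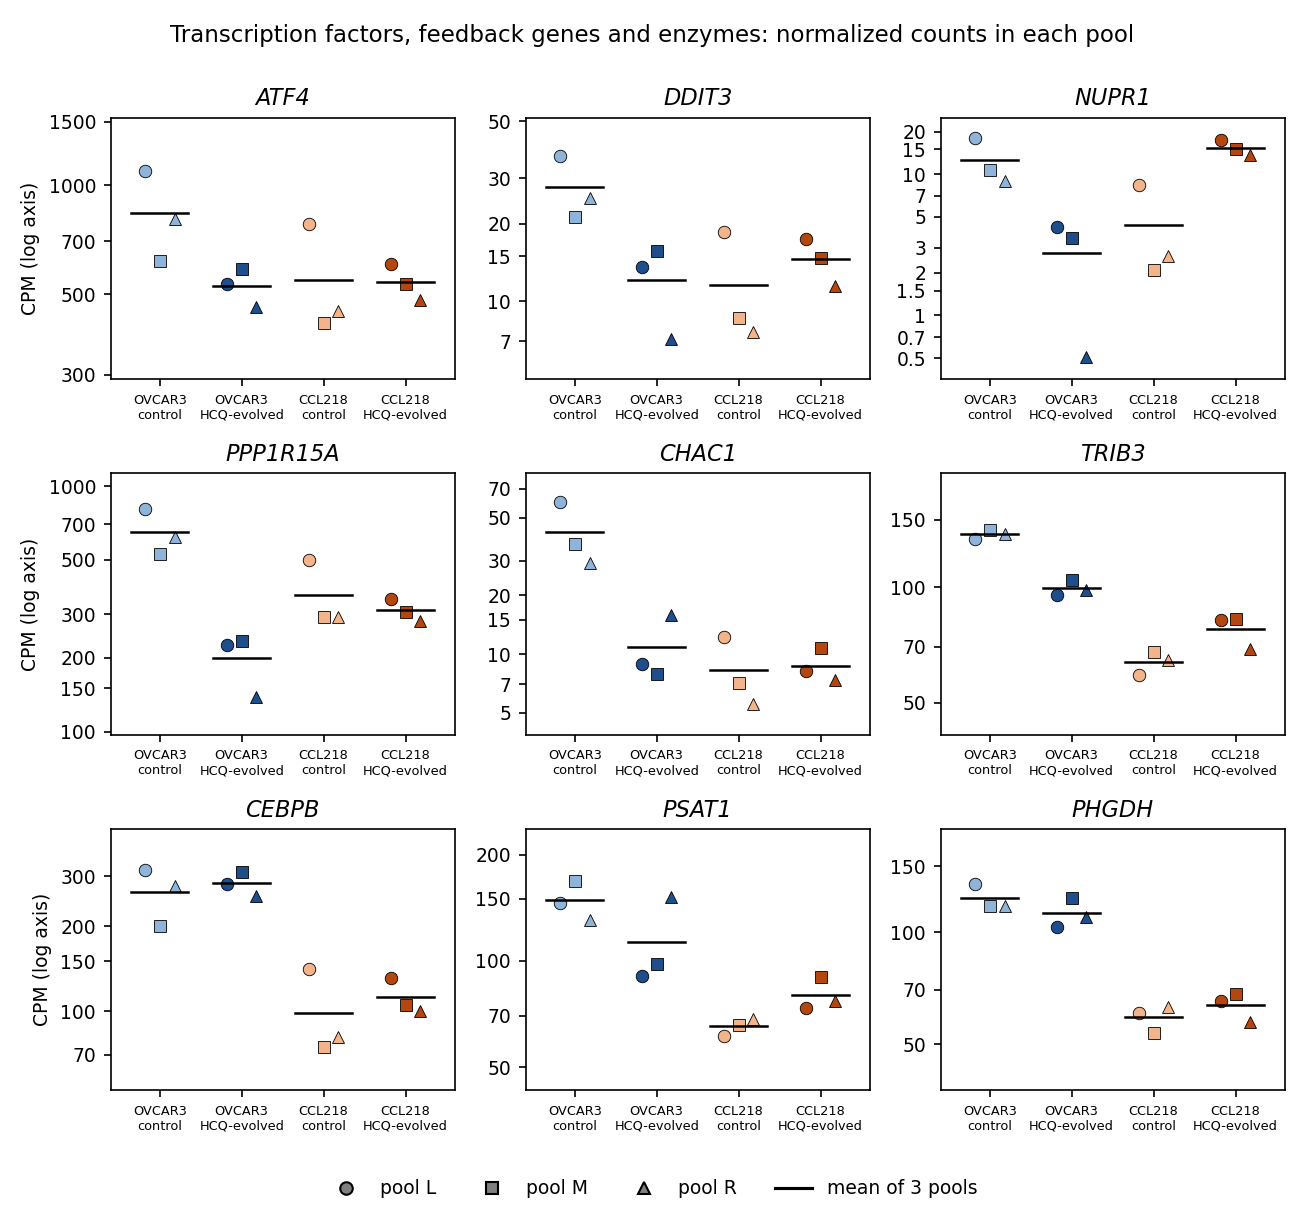
Normalized counts (CPM, log axis) of 9 transcription factor, feedback and enzyme genes in each pool, with points shaped by plate position and a line at the mean of 3 pools. In OVCAR3 the HCQ-evolved pools lie below the control pools for ATF4, DDIT3, NUPR1, PPP1R15A, CHAC1 and TRIB3. In CCL218 they lie above them for NUPR1, TRIB3 and PSAT1, and the groups overlap for PPP1R15A and CHAC1.

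Among the transcription factors, NUPR1 had the largest log2 fold change in each line, with opposite signs. NUPR1 is a small stress-induced chromatin protein that cooperates with the ATF4 arm. It was at 17.9, 10.6 and 8.999 CPM in OVCAR3 control pools and at 4.23, 3.56 and 0.507 CPM in HCQ-evolved pools. In CCL218 it was at 8.33, 2.10 and 2.61 CPM in control and 17.5, 14.9 and 13.7 CPM in HCQ-evolved pools. The groups did not overlap in either line, with log2 fold changes of -2.21 ± 0.68 (adjusted p = 0.155) and 1.79 ± 0.51 (adjusted p = 0.0866), neither of them called. Pool R was the lowest OVCAR3 HCQ-evolved pool by a wide margin.

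DDIT3 encodes CHOP, the partner of ATF4 that drives cell death under lasting stress. It was at 36.8, 21.2 and 25.1 CPM in OVCAR3 control pools and 13.6, 15.7 and 7.15 CPM in HCQ-evolved pools. The groups did not overlap, and the change did not pass (-1.22 ± 0.34, adjusted p = 0.119). In CCL218 it was at 18.5, 8.60 and 7.62 CPM in control and 17.5, 14.8 and 11.5 CPM in HCQ-evolved pools, overlapping through control L (0.30 ± 0.36, adjusted p = 0.626). DDIT3 shares 27.2% of its exonic bases with MARS1 on the opposite strand, which had 4335 to 10241 counts against 356 to 1492 for DDIT3, and whether counting used strand is not given in the sources used here.

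ATF4 itself was at 1099, 618 and 808 CPM in OVCAR3 control pools and 536, 587 and 461 CPM in HCQ-evolved pools. The groups did not overlap but came close at control M (-0.70 ± 0.25, adjusted p = 0.218). In CCL218 ATF4 was at 780, 417 and 451 CPM in control and 608, 532 and 482 CPM in HCQ-evolved pools, which fell within the control range (-0.05 ± 0.26, adjusted p = 0.912). Per kilobase of transcript ATF4 was the most abundant member in OVCAR3 control pools, at 593 CPM per kb. The same held in CCL218 control (387 CPM per kb) and CCL218 HCQ-evolved pools (381 CPM per kb). In OVCAR3 HCQ-evolved pools it had rank 3, at 372 CPM per kb. XBP1, CEBPB, CEBPG and CREB3L2 lay between -0.174 and 0.237 in both lines, and none was called. ATF4, XBP1, SDF2L1 and CRELD2 are on chromosome 22, where the median log2 fold change was 0.152 in OVCAR3 (292 genes) and 0.161 in CCL218 (295 genes), beside 0.012 and -0.021 for the other chromosomes.

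The enzymes that ATF4 supplies for serine, glycine and one-carbon metabolism did not pass in either line. Of the 5 tested, 3 were positive in OVCAR3 and 5 in CCL218, with log2 fold changes of -0.404 to 0.293 and 0.034 to 0.36. PSAT1, the aminotransferase of serine synthesis, was at 146, 169 and 131 CPM in OVCAR3 control and 90.6, 97.9 and 152 CPM in HCQ-evolved pools. HCQ-evolved R lay among the control pools (-0.40 ± 0.25, adjusted p = 0.474). In CCL218 PSAT1 was at 61.5, 65.9 and 68.5 CPM in control and 73.7, 90.1 and 77.1 CPM in HCQ-evolved pools, all higher (0.27 ± 0.13, adjusted p = 0.227). MTHFD2, the mitochondrial folate enzyme, was at 91.5, 136 and 146 CPM in CCL218 control and 157, 175 and 155 CPM in HCQ-evolved pools (0.36 ± 0.18, adjusted p = 0.261), again without overlap. PSPH, the phosphatase that ends serine synthesis, had a log2 fold change of 0.29 ± 0.17 in OVCAR3 (adjusted p = 0.462). ASNS, the asparagine synthetase, had 9 to 101 counts a pool, 0.217 to 2.25 CPM. A read-through gene, CZ1P-ASNS, spans it and was counted separately at 1 to 20 counts, so the level of ASNS is uncertain where reads fit both.

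None of the 14 ER chaperones passed in either line, and their median log2 fold changes were 0.159 in OVCAR3 and 0.011 in CCL218. At an unadjusted p under 0.05 there were 1 in OVCAR3 and 2 in CCL218, where 16.2% and 25.2% of all genes passed. HSPA5 (BiP), the main ER HSP70 and the standard reporter of the response, was at 657, 581 and 704 CPM in OVCAR3 control and 656, 697 and 479 CPM in HCQ-evolved pools. In CCL218 it was at 539, 547 and 563 CPM and at 557, 551 and 528 CPM. The groups overlapped in both lines (log2 fold change -0.11 ± 0.20, adjusted p = 0.845, and -0.04 ± 0.11, adjusted p = 0.853). The 10 members with an ERSE or ERSE-II had a median log2 fold change of 0.042 in OVCAR3 and 0.232 in CCL218, with a range of -0.4 to 0.674 and -0.714 to 0.372, and none was called.

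The disulfide isomerases PDIA4 and PDIA6 had the largest values among the chaperones in OVCAR3. PDIA4 was at 380, 422 and 470 CPM in control and 641, 641 and 596 CPM in HCQ-evolved pools. All HCQ-evolved pools were higher, and the change did not pass (0.54 ± 0.17, adjusted p = 0.164). In CCL218 PDIA4 was at 418 to 497 CPM in control and 466 to 474 CPM in HCQ-evolved pools, which overlapped. PDIA6 was at 101, 234 and 257 CPM in OVCAR3 control and 321, 348 and 290 CPM in HCQ-evolved pools. Control L was far below the other control pools (0.67 ± 0.33, adjusted p = 0.37), and CCL218 control L was low too, at 110 CPM beside 278 and 303 CPM.

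HSP90B1 (GRP94) was higher in every HCQ-evolved pool of both lines, at 735, 687 and 798 CPM in OVCAR3 control, 965, 1079 and 830 CPM in HCQ-evolved, 694, 748 and 790 CPM in CCL218 control and 928, 999 and 907 CPM in HCQ-evolved pools. The log2 fold changes of 0.35 ± 0.19 and 0.32 ± 0.12 did not pass (adjusted p = 0.411 and 0.157). The pools of 4 members were apart in the same direction in both lines, HSP90B1, PDIA3, SYVN1 and EDEM1, where 13.6% of genes tested in both lines were. SDF2L1, a small partner of the HSPA5 machinery, was at 33.3, 16.0 and 19.6 CPM in CCL218 control and 16.6, 12.7 and 13.7 CPM in HCQ-evolved pools, and DNAJB11, an HSPA5 co-chaperone, was at 143, 82.6 and 94.4 CPM and at 80.9, 78.3 and 73.9 CPM. In both genes control L stood highest, and the groups overlapped for SDF2L1 but not for DNAJB11 (-0.71 ± 0.29, adjusted p = 0.182, and -0.48 ± 0.22, adjusted p = 0.219).

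**Figure D3:**
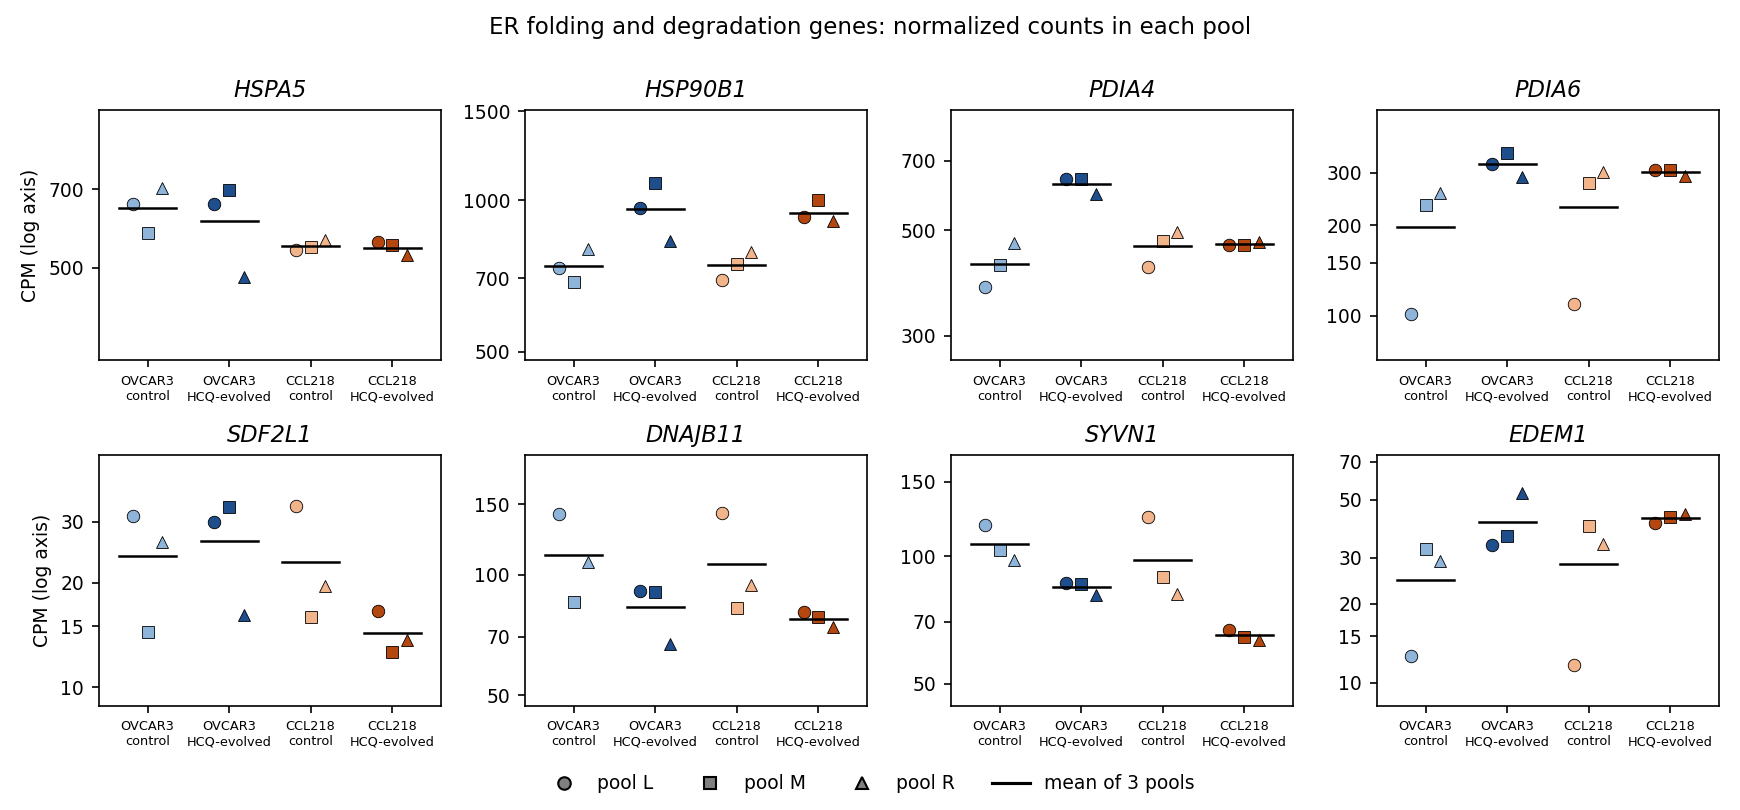
Normalized counts (CPM, log axis) of 6 ER chaperones and 2 degradation genes in each pool, with a line at the mean of 3 pools. HSPA5 groups overlap in both lines, PDIA4 groups overlap in CCL218 and not in OVCAR3, and control L of both lines is low for PDIA6 and EDEM1 and high for DNAJB11.

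Degradation genes did not pass either. SYVN1, the HRD1 ubiquitin ligase of the ER membrane, was at 119, 104 and 98.02 CPM in OVCAR3 control and 86.4, 85.8 and 81.0 CPM in HCQ-evolved pools, and at 124, 89.3 and 81.3 CPM in CCL218 control and 67.1, 64.5 and 63.4 CPM in HCQ-evolved pools. Every HCQ-evolved pool was lower than every control pool in both lines (-0.36 ± 0.17, adjusted p = 0.34, and -0.63 ± 0.18, adjusted p = 0.0954). EDEM1, the mannosidase that marks glycoproteins for removal, was at 12.6, 32.3 and 29.1 CPM in OVCAR3 control and 33.5, 36.5 and 53.0 CPM in HCQ-evolved pools, and at 11.7, 39.8 and 33.8 CPM and 40.6, 43.0 and 44.1 CPM in CCL218. Control L was the lowest pool in both lines (0.72 ± 0.37, adjusted p = 0.396, and 0.57 ± 0.39, adjusted p = 0.393). SEL1L, the adaptor of SYVN1, had a log2 fold change of 0.41 ± 0.34 in OVCAR3 (adjusted p = 0.608).

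**Figure D4:**
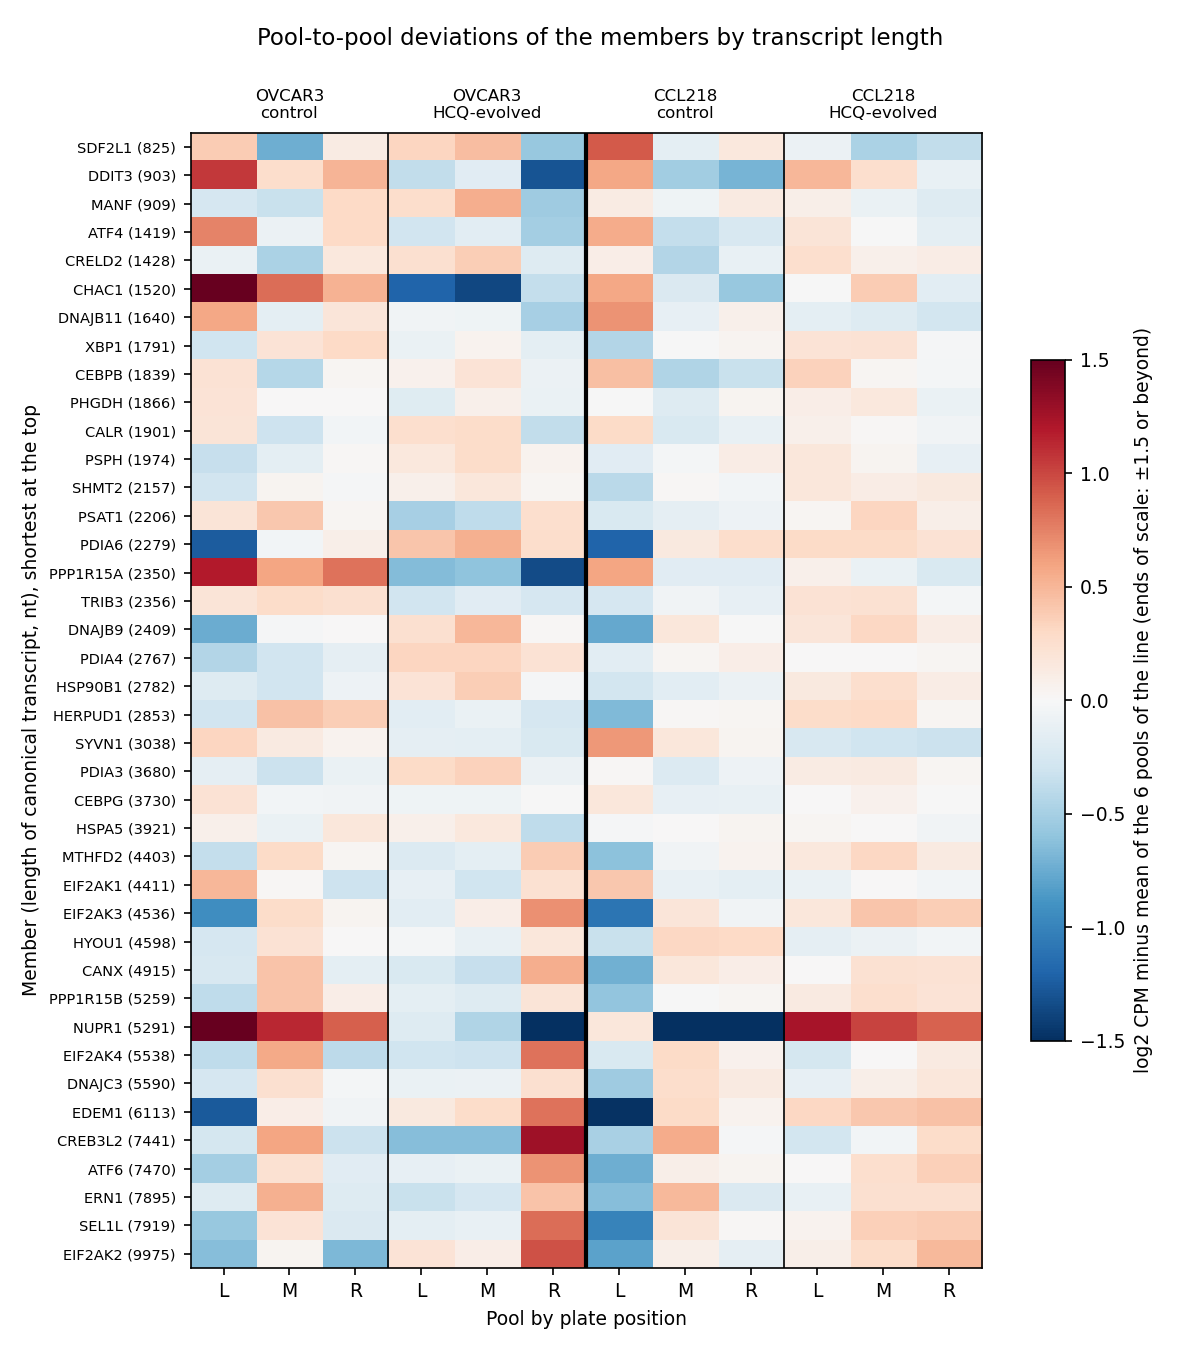
Deviation of each member's log2 CPM from the mean of the 6 pools of its line, with members ordered by the length of their canonical transcript and pools grouped by condition. Long members are low in CCL218 control L and high in OVCAR3 HCQ-evolved R.

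Deviations between pools of 1 group moved with transcript length. The 24 members for which CCL218 control L was lowest had a median transcript length of 4470 nt, against 1870 nt for the 14 for which it was highest. OVCAR3 HCQ-evolved R was lowest for 21 members (median 2157 nt) and highest for 17 (median 5259 nt). The part of transcript length in each member's change was not tested beyond the fit with a length and GC trend removed, which called PPP1R15A and DDIT3 lower and PDIA4 and EIF2AK2 higher in OVCAR3, where it called 8.59% of all genes. In CCL218 it called EIF2AK2, CRELD2 and CEBPB higher and SYVN1 lower, where it called 19% of all genes.

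Whether the change differed between the lines was asked by the interaction, the CCL218 change minus the OVCAR3 change. No member passed, where 0.872% of all 12613 genes did (0.69% higher and 0.182% lower), and 8 members had an unadjusted p under 0.05, where 9.11% of genes did. DESeq2 called 4 members positive (NUPR1, PPP1R15A, CHAC1 and TRIB3) and 1 negative (PDIA4), and limma voom called NUPR1, where they called 3.67% and 1.01% of all genes. The smallest adjusted p was that of TRIB3 (0.77 ± 0.17, adjusted p = 0.0689), followed by NUPR1 (4.02 ± 0.96, adjusted p = 0.0899). NUPR1 and TRIB3 were the members whose pools were apart in opposite directions in the lines, where 1.27% of genes were. PPP1R15A, called in OVCAR3 and not in CCL218, had an interaction of 1.52 ± 0.38 that did not pass (adjusted p = 0.11). Leaving out OVCAR3 HCQ-evolved R gave 3 calls (NUPR1, PSAT1 and CHAC1), with 1.69% of all genes called, and leaving out CCL218 control L gave 2 (NUPR1 and PPP1R15A), with 0.885% called.

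The control pools differed between the lines before any drug. Lower levels in CCL218 than in OVCAR3 were called for 5 members and higher levels for none, where 3.42% of all 12613 genes were called, 2.07% lower and 1.35% higher. At an unadjusted p under 0.05 there were 13 members, 12 lower and 1 higher, where 14.5% of all genes passed. DESeq2 called 8 lower, and neither it nor limma voom called any higher, where they called 7.33% and 3.73% of all genes. By role the 5 were 2 of 4 feedback and effector genes, 2 of 5 enzymes tested and 1 of 7 transcription factors: CHAC1 (5.15-fold lower, log2 -2.36 ± 0.39, adjusted p = 0.00724), CEBPB (2.7-fold, -1.43 ± 0.26, adjusted p = 0.011), PSAT1 (2.30-fold, -1.20 ± 0.20, adjusted p = 0.00648), TRIB3 (2.18-fold, -1.12 ± 0.12, adjusted p = 0.000559) and PHGDH (2.11-fold, -1.08 ± 0.14, adjusted p = 0.00163). PHGDH, the first enzyme of serine synthesis, was at 135, 118 and 118 CPM in OVCAR3 and 60.8, 53.8 and 63.0 CPM in CCL218 control pools. CEBPB, a bZIP factor that pairs with ATF4, was at 315, 200 and 277 CPM and at 140, 75.0 and 81.3 CPM. The groups did not overlap for any of the 5, which the test had already picked from these same pools. The share of all genes without overlap between the controls was not counted. The CEBPB call was lost without CCL218 control M or R (adjusted p up to 0.0671), where 1.44% and 1.56% of all genes were called. Without CCL218 control L 8 members were called lower, where 6.3% of all genes were called in either direction. These control pools also enter the comparisons above, so low levels in HCQ-evolved OVCAR3 and in control CCL218 are not independent.

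Of 163 further genes of the pathway in 7 lists, 153 were tested in each line. In OVCAR3 2 were called lower, ATF3 and GDF15, and 1 higher, DDIT4, all ATF4 targets, 3 of 153 where 1.86% of all genes were called. ATF3, a bZIP repressor induced by ATF4, was at 208, 193 and 164 CPM in control and 7.79, 4.77 and 5.83 CPM in HCQ-evolved pools, with no overlap (-4.96 ± 0.27, adjusted p = 0.000892). GDF15, a secreted stress cytokine, fell in the same pools (-2.90 ± 0.45, adjusted p = 0.0289), a call lost with any single pool left out but HCQ-evolved R (adjusted p up to 0.171). The fits that lost it called 0.025% to 0.404% of all genes. DDIT4, which restrains mTORC1, rose in both lines, by 1.56 ± 0.17 (adjusted p = 0.0101) and 1.90 ± 0.19 (adjusted p = 0.00376). Its OVCAR3 call held only without HCQ-evolved L or R and was lost without each of the other pools (adjusted p up to 0.106). The fits that lost the DDIT4 call called 0.025% to 0.206% of all genes. In CCL218 7 were called higher and 3 lower, 10 of 153 where 6.46% of all genes were called, VEGFA (1.54), VLDLR (2.03), DDIT4, SERP2 (-4.25) and ARFGAP3 (1.06) having the smallest p. SERP2 was at or below 1.33 CPM in every pool. Between the controls 7 of 154 were called lower in CCL218 and none higher, where 3.42% of all genes were called. Among the 7 were PCK2 (-1.20, adjusted p = 0.000834), DDIT4 (-1.34, adjusted p = 0.00174), ATF3 (-2.33, adjusted p = 0.00329), SLC3A2 (-0.89, adjusted p = 0.00358) and SARS1 (-0.69, adjusted p = 0.0142). At an unadjusted p under 0.05 there were 29 of these genes, 24 lower and 5 higher, where 14.5% of all genes passed. None of the 19 aminoacyl-tRNA synthetases tested passed in either line (median log2 fold change -0.157 in OVCAR3 and 0.047 in CCL218), nor did any of the 15 genes of eIF2, eIF2B and their relays or the 14 further transducers of the response. Of 21 further degradation genes, 1 was lower in CCL218 and none passed in OVCAR3.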

How the data were processed

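Bulk polyA RNA-seq counts of 12 pools were used. The authors aligned reads to hg38 with STAR and counted them per gene with featureCounts; versions, strand and multi-overlap settings are not given in the sources used here. The deposited values are raw counts, and every pool was mapped to its group by the labels.

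Genes that reached 1 CPM in 3 or more pools were tested with edgeR 4.0.16 (TMM, robust quasi-likelihood F test, R 4.3.3), each line on its own. The interaction and the contrast of controls came from 1 fit of 12 pools. Adjusted p-values are Benjamini-Hochberg over all genes tested, with a threshold of 0.05. CPM were scaled by TMM over all 12 pools. Transcript lengths and gene positions came from GENCODE annotation of hg38, which matched 25763 of 28278 symbols. Scripts were tested on simulated data. Replicate pools differed far beyond counting noise.

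Plate positions paired the CCL218 pools weakly at most. Correlations of same-position deviations were 0.505, 0.23 and 0.197, against -0.569 to 0.43 for different positions. Same-position OVCAR3 pools were not paired (0.401, -0.663 and -0.476). The members and lists were chosen with earlier results of these data known. Members called in any comparison, and the 2 of each role with the largest change in each line, were named with their statistics, and of the further lists at most 5 called genes a comparison. ATF4, HSPA5 and HSP90B1 lay outside that rule and were described after their values were seen. Alternatives were RLE factors, other filters, DESeq2 1.42.0, limma 3.58.1 voom, legacy mode off, 1 fit of all pools, a replicate block, a length and GC trend, and leaving out pools. Leaving out both OVCAR3 pools with the strongest rise with length was added after seeing the data.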

Additional observations from a re-analysis of the deposited data

Results flagged for a closer look

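NUPR1 was lower in every OVCAR3 HCQ-evolved pool and higher in every CCL218 HCQ-evolved pool, and the difference between the lines (4.02 on the log2 scale) did not pass the interaction test (edgeR, adjusted p = 0.0899). TRIB3 showed the same pattern with a difference of 0.77 (adjusted p = 0.0689), as did PCK2, the mitochondrial PEP carboxykinase, with 0.74 (adjusted p = 0.12). For ATF3 the interaction test itself passed, with a difference of 4.72 (adjusted p = 0.00167). It was lower in OVCAR3 HCQ-evolved pools, whereas its CCL218 groups overlapped (-0.26, adjusted p = 0.673).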

How the results depend on the processing

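The share of all genes called moved with the setting, and the members' counts are to be read beside it. In OVCAR3 it was 2.56% without a filter, 2.02% with filterByExpr, 9.05% with DESeq2, 2.4% with limma voom, 2.27% with legacy mode off, 9.24% with all libraries in one fit, 0.664% with the replicate block, 8.59% with the trend removed, 3.52% with block and trend and 6.18% without both length-shifted pools, beside 1.86% in the fit reported. In CCL218 it was 4.62% without a filter, 17.7% with DESeq2, 7.34% with voom, 14.2% with the block, 19% with the trend removed and 17.1% with both, beside 6.46%.

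In OVCAR3, where 0 members were called higher and 1 lower, higher calls were 1 with DESeq2, 1 with all libraries in one fit and 2 with the length and GC trend removed. Lower calls were 3 without a filter, 2 with filterByExpr, 5 with DESeq2, 2 with limma voom, 2 with legacy mode off, 3 with all libraries in one fit, 0 with the replicate block (PPP1R15A, adjusted p = 0.052, edgeR), 2 with the trend removed and 2 with block and trend. Leaving out single pools gave 0 to 3 lower calls, where 0.025% to 4.6% of all genes were called. Leaving out control M and HCQ-evolved R together gave 1 higher and 4 lower.

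In CCL218, from 0 in both directions, higher calls were 1 without a filter, 2 with DESeq2, 1 with limma voom, 1 with the replicate block, 3 with the trend removed and 5 with both. Lower calls were 1 with DESeq2, 2 with the block, 1 with the trend removed and 1 with both. Single pools left out gave 0 to 5 higher and 0 to 2 lower calls, where 0.841% to 25.2% of all genes were called.

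In the interaction, from 0, higher calls were 4 with DESeq2, 1 with voom and 2 with the trend removed, and lower calls 1 and 2 with DESeq2 and the trend removed. DESeq2, voom and the trend removed called 3.67%, 1.01% and 3.31% of all genes, beside 0.872% in the fit reported. Single pools left out gave 0 to 3 higher calls, and the replicate block 0, where 0.302% to 1.69% and 0.277% of all genes were called. Between controls, higher calls were 2 with the trend removed, and lower calls 8 with DESeq2, 10 with the trend removed and 4 to 8 with single pools left out. DESeq2 called 7.33% of all genes there, and the fits without a single pool 1.44% to 6.3%. The replicate block gave 0 lower calls, where it called 0.127% of all genes. It fits positions within each line from control and HCQ-evolved pools, and its contrast is of the control levels fitted at position L. The trend removed called 5.95% of all genes between controls, beside 3.42% in the fit reported. The cause of these shifts was not tested.

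Of the gene values printed, ATF4 in CCL218 changed sign with limma voom (0.003), the replicate block (0.005), the trend removed (0.097) and both (0.113). With single pools left out it ran from -0.219 to 0.299, CHAC1 in CCL218 from -0.182 to 0.451, PPP1R15A in CCL218 from -0.377 to 0.078, and in OVCAR3 SEL1L ran from -0.007 to 0.631, PPP1R15B from -0.335 to 0.063 and HSPA5 from -0.199 to 0.031. Over all 40 members and 4 comparisons, 194 of 2800 refitted values changed sign. None of them was called in the fit reported, and 1 was called after the change, SDF2L1 between controls (0.464 with the trend removed). OVCAR3 positions share a name only. Each group held 3 pools of 1 plate, and the parts of pool spread and of depth in these results were not tested.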
